A study of Mus musculus with 48 samples.

Results

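A group of 9 genes for transcription factors and regulators of inflammation was followed in the tibialis anterior muscle of mice with and without a pancreatic tumor. They comprise 3 C/EBP factors (Cebpb, Cebpd and Cebpa), the NF-kB subunits Nfkb1, Nfkb2, Rela and Relb, and a pair of IkB family proteins, Nfkbia and Bcl3. The 9 genes were taken by name from the 56748 genes in the expression table, and all 9 were among the 15637 genes with enough reads to be tested. RNA-seq was performed on 48 muscles, 1 library per mouse, from 4 combinations of genotype and tumor at 6 circadian times (CT), with 2 mice in each of the 24 groups. KPC mice received FC1245 pancreatic cancer cells by injection into the pancreas in 50 µl of PBS, and control mice received PBS alone. All mice were males of 39 to 55 weeks that had been moved to constant darkness at CT0. Muscles were collected every 4 h from CT18 to CT38. FoxP1SkmKO mice were homozygous for the floxed allele FoxP1fl/fl and carried ACTA1-Cre, in which a promoter active in skeletal muscle fibers drives the recombinase, so the other cells of the muscle kept the gene. The controls for genotype, called WT, are described as FoxP1fl/fl mice without Cre in the design text and as C57BL/6J in the sample labels. Unless another method or other libraries are named, each p-value for tumor or genotype below came from edgeR's quasi-likelihood test on read counts in all 48 libraries. It was adjusted by the Benjamini-Hochberg method over all tested genes, and a gene was called when the adjusted p was under 0.05. Log2 fold changes are KPC over control unless stated, and values after ± beside them are standard errors. The replicates are separate mice, so the spread is that between animals.

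C/EBP factors bind DNA as dimers of basic leucine zipper proteins, and C/EBPβ and C/EBPδ are induced by cytokines and glucocorticoids during the acute-phase response. NF-kB dimers are held in the cytoplasm by IkB proteins such as IkBα, the product of Nfkbia, until IkB kinases mark the inhibitor for degradation, and Nfkbia is itself a target of NF-kB, which closes a feedback loop. Bcl-3 is an atypical IkB that works in the nucleus with p50 or p52 homodimers, and both Bcl-3 and p50 are known for their part in muscle atrophy.

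The sequences before the start sites of Cebpb, Cebpd, Nfkbia and Relb are printed as the promoters of the C/EBP members that had the highest level or rose in KPC mice, and of the members with an NF-kB match. Each runs 5′ to 3′ on the strand of the gene, from 250 bases before to 50 bases after the first base of the Ensembl canonical transcript, in the GRCm39 (mm39) genome. Capitals mark matches to the motifs searched.
Cebpb, chr2:167530585-167530884, plus strand: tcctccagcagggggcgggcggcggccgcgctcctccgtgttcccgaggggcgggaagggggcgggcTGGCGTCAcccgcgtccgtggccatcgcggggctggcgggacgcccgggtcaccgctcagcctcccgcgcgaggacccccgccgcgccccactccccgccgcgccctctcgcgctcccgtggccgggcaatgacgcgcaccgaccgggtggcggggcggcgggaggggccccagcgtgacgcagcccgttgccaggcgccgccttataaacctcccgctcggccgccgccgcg
Cebpd, chr16:15704900-15705199, plus strand: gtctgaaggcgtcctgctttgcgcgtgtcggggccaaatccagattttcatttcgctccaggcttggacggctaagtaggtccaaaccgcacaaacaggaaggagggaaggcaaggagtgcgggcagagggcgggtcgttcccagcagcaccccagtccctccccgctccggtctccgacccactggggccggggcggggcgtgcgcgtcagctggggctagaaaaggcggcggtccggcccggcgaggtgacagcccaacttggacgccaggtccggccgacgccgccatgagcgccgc
Nfkbia, chr12:55539383-55539682, minus strand: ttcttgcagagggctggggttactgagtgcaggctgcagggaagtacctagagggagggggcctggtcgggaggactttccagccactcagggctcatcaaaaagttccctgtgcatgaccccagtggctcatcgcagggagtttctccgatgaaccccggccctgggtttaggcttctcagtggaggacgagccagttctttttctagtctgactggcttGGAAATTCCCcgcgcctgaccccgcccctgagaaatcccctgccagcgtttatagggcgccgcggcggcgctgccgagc
Relb, chr7:19363374-19363673, minus strand: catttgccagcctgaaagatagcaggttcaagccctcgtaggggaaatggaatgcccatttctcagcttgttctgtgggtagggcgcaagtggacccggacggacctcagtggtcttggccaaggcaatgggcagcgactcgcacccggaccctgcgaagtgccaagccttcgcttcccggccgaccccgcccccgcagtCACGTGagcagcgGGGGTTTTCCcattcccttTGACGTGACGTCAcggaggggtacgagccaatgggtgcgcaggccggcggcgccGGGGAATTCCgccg
The Nfkbia window held 1 NF-kB consensus match, GGAAATTCCC, from base -29 to base -20, counting the start as 0. Relb held a pair of them, GGGGTTTTCC from -37 to -28 and GGGGAATTCC from 36 to 45, together with the E-box CACGTG from -50 to -45 and overlapping CRE-like matches from -18 to -6. Cebpb held 1 CRE-like match, read on the gene's strand as TGGCGTCA, and Cebpd held none of the 7 motifs. Both strands were searched in the windows of all 9 members and of 21770 protein-coding genes. The NF-kB consensus was found in 2 of the 9 members and 4.87% of all promoters. C/EBP (TTGCNNAA) was found in 1 member, Nfkb1, and 10.7% of promoters, and forkhead (TGTTTNC) in 1 member, Nfkb2, and 19.7%. The CRE-like motif (TGACGNNA) was found in 2 members and 8.09% of promoters, and the E-box (CACGTG) in 1 member and 7.81%. STAT (TTCNNNGAA, 8.81% of promoters) and the glucocorticoid response element consensus (0.381%) had 0 matches in the 9 windows. These are letter matches in the reference genome, not measured binding.

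The libraries held 14480867 to 20787784 counted reads, with a median of 16602091. Foxp1 RNA over the whole gene was not called lower in FoxP1SkmKO muscle: its median was 0.615 FPKM (fragments per kilobase of gene length and per unit of library size) in WT control and 0.585 FPKM in FoxP1SkmKO control mice, a log2 difference of -0.11 (adjusted p = 0.46), and in KPC mice the difference was -0.20 (adjusted p = 0.25). A sum over all exons, in a tissue where other cells keep the gene, does not show whether the floxed exons were lost, so genotypes are given as labelled. All 10 skeletal muscle fiber markers were detected, with a median of 23400 FPKM for Acta1. The libraries least like the others were FoxP1SkmKO KPC CT18 mouse 2 (median correlation 0.969), WT control CT26 mouse 1 (0.973), and FoxP1SkmKO control CT22 mouse 1 and KPC CT30 mouse 2 (both 0.976). At CT26 in WT mice, 1121 genes were called between KPC and control mice, against 0 to 4 at each of the other times.

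In mm39 coordinates of the deposited annotation, Cebpb lies at chr2:167530835-167532338 and Cebpd at chr16:15705150-15708895, both on the plus strand, and Cebpa at chr7:34818718-34821353 on the plus strand. Bcl3 (chr7:19542387-19556695) and Relb (chr7:19340142-19363363) lie near each other on the minus strand of the same chromosome. Nfkbia lies at chr12:55536195-55539432 and Nfkb1 at chr3:135290416-135397308, both on the minus strand, and Nfkb2 (chr19:46292759-46300824) and Rela (chr19:5687511-5698158) on the plus strand of chromosome 19.

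Levels differed widely between the 9 members. On the FPKM scale, which accounts for gene length, Cebpb was highest at 37.0 ± 16.6 (mean ± SD over 48 libraries), followed by Nfkbia at 9.53 ± 1.75 and Rela, the p65 subunit, at 7.71 ± 0.93. Cebpd stood at 3.58 ± 1.64, Nfkb2 at 2.62 ± 0.40 and Nfkb1 at 2.40 ± 0.15. Cebpa stood at 1.79 ± 0.46, Relb at 1.71 ± 0.31 and Bcl3 at 0.969 ± 0.41. The means of neighbours in this order differed by less than the larger of their SDs for Cebpd and Nfkb2, for Nfkb2 and Nfkb1, and for Cebpa and Relb. Nfkb1 varied least, from 2.08 to 2.87 FPKM, and Cebpb covered the widest span, from 12.6 to 86.0 FPKM.

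Cebpd, the C/EBP factor known for rapid induction in the acute phase, rose in KPC mice of both genotypes. Over the 12 libraries of each group, the lowest, median and highest levels were 1.67, 2.38 and 4.44 FPKM in WT control mice and 2.20, 3.89 and 8.57 FPKM in WT KPC mice. In FoxP1SkmKO mice they were 2.03, 2.69 and 6.93 FPKM without tumor and 2.30, 3.93 and 7.92 FPKM with tumor. The 12-library ranges of control and KPC mice overlapped in both genotypes, with the KPC medians higher. Averaged over the 6 times, the log2 fold change between KPC and control mice was 0.70 ± 0.11 (SE) in WT mice, a 1.63-fold rise (adjusted p = 0.00039), and 0.50 ± 0.10 in FoxP1SkmKO mice, a 1.42-fold rise (adjusted p = 0.018).

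In WT mice at CT38, Cebpd stood at 2.68 and 1.96 FPKM in the control mice and at 6.58 and 8.57 FPKM in the KPC mice. In FoxP1SkmKO mice at CT38 it stood at 2.03 and 2.43 FPKM in control and 7.92 and 6.24 FPKM in KPC mice. Both KPC mice were therefore above both control mice in each genotype, with no overlap. The fold change was 3.27 in WT (log2 1.71 ± 0.26, adjusted p = 0.0023) and 3.16 in FoxP1SkmKO mice (log2 1.66 ± 0.26, adjusted p = 0.0038). At CT18 the WT control mice were at 2.23 and 2.79 FPKM and the WT KPC mice at 4.14 and 4.71 FPKM. At CT30 the controls were at 1.67 and 2.30 FPKM and the KPC mice at 3.08 and 4.46 FPKM. These gaps were in the same direction as at CT38 but smaller, and neither was called (adjusted p = 0.69 and 0.62). CT34 differed: WT control mice were at 4.44 and 2.76 FPKM and WT KPC mice at 3.34 and 3.65 FPKM. In FoxP1SkmKO mice at CT34 the controls, at 5.94 and 6.93 FPKM, were above the KPC mice, at 3.27 and 5.38 FPKM (log2 fold change -0.57 ± 0.24, adjusted p = 1). Across the 6 times, both KPC mice were above both control mice at 4 times in WT and at 4 times in FoxP1SkmKO mice, while 20.2% of gene and time pairs in WT and 20.6% in FoxP1SkmKO mice were ordered in that way among all genes with a mean of at least 1 FPKM.

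Bcl3 had the largest averaged fold change of the 9 members in each genotype and the lowest level. Its lowest, median and highest levels over 12 libraries were 0.286, 0.524 and 1.18 FPKM in WT control and 0.792, 1.201 and 1.98 FPKM in WT KPC mice. In FoxP1SkmKO mice they were 0.447, 0.671 and 1.25 FPKM in control and 0.748, 1.17 and 1.87 FPKM in KPC mice. The KPC groups of both genotypes lay higher with overlap, and the mean of the KPC mice was above that of the control mice at all 6 times in each genotype. The averaged log2 fold change was 1.04 ± 0.15 in WT mice, a 2.06-fold rise (adjusted p = 0.00037), and 0.70 ± 0.15 in FoxP1SkmKO mice, a 1.62-fold rise (adjusted p = 0.024). At CT38 in WT mice Bcl3 stood at 0.357 and 0.286 FPKM in control and 1.54 and 1.98 FPKM in KPC mice, a 5.42-fold difference (log2 2.44 ± 0.40, adjusted p = 0.0062). In FoxP1SkmKO mice at CT38 it stood at 0.6998 and 0.6138 FPKM in control and 1.46 and 1.16 FPKM in KPC mice, a 1.99-fold difference that was not called (adjusted p = 0.49). Both KPC mice were above both controls there too. The WT control mice at CT38 were the lowest of all 24 groups, and these values rest on 15 and 11 reads, against 62 and 79 reads in the WT KPC mice. At CT18, CT30 and CT34 the WT KPC mice ranged from 0.907 to 1.42 FPKM and the WT controls from 0.399 to 0.782 FPKM, without overlap at any of these times. At CT22 and CT26 the WT KPC and control mice overlapped. In FoxP1SkmKO mice the groups overlapped at CT18 and CT22, and at CT22 the controls, at 1.14 and 0.971 FPKM, lay between the KPC mice, at 0.748 and 1.41 FPKM. Both KPC mice were above both controls at 4 of 6 times in each genotype. Among genes with a mean of at least 1 FPKM, 20.2% of gene and time pairs in WT and 20.6% in FoxP1SkmKO mice were ordered in that way. Bcl3, with a mean of 0.969 FPKM, is not in that set. The share of genes with a higher KPC mean at all 6 times was not counted.

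**Figure D1:**
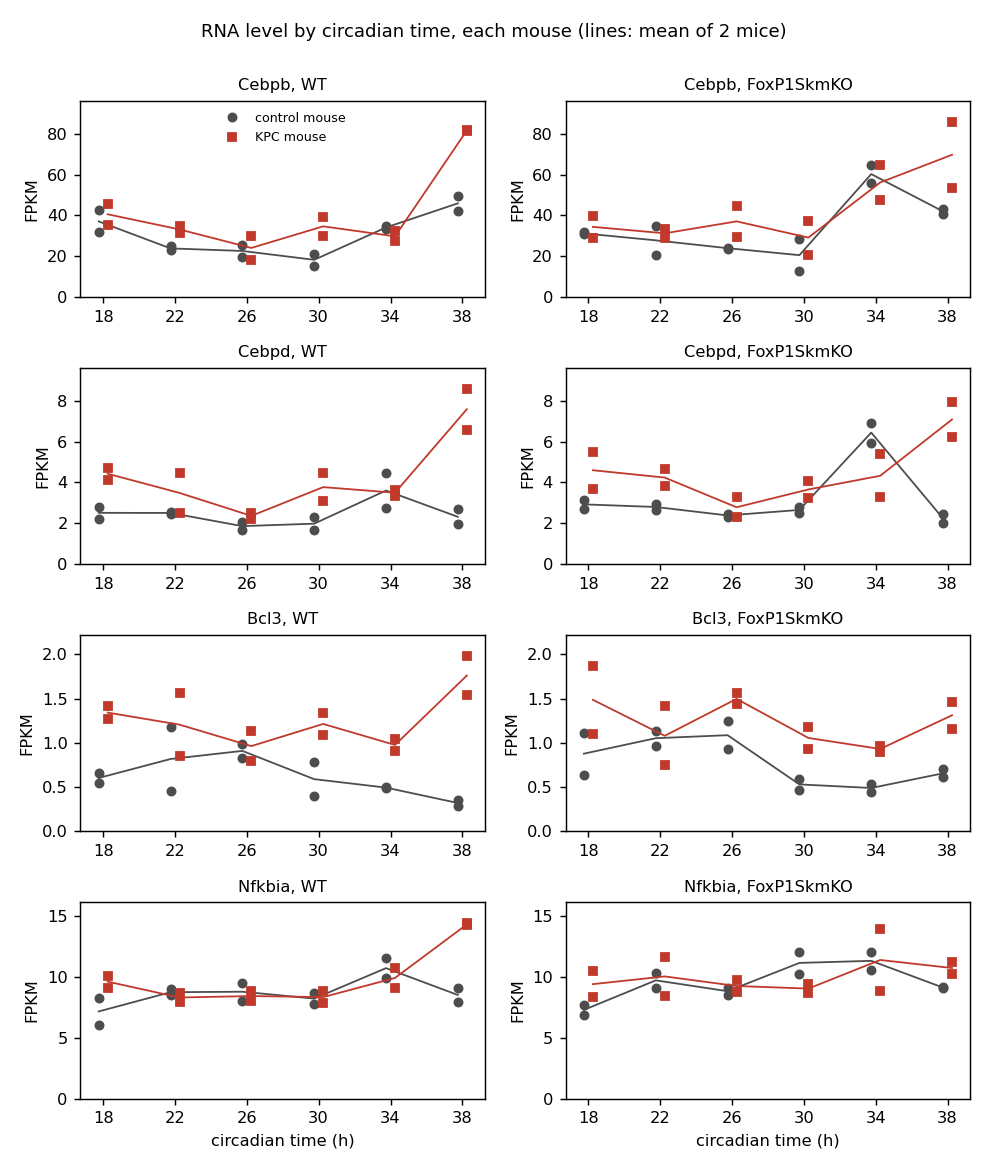
RNA level in FPKM (y axis) against circadian time in hours (x axis) for Cebpb, Cebpd, Bcl3 and Nfkbia, with WT mice on the left and FoxP1SkmKO mice on the right. Each point is 1 mouse, grey for control and red for KPC, and lines join the means of 2 mice. Cebpd in KPC mice reached 6.24 to 8.57 FPKM at CT38, against 1.96 to 2.68 FPKM in control mice, while at CT34 the FoxP1SkmKO controls were at 5.94 and 6.93 FPKM.

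Cebpb, the most abundant member and a known mediator of muscle protein loss in tumor-bearing mice, had positive averaged changes that were not called. Its lowest, median and highest levels were 15.3, 28.6 and 49.4 FPKM in WT control and 18.3, 33.5 and 81.8 FPKM in WT KPC mice, and 12.6, 31.1 and 64.7 FPKM in FoxP1SkmKO control and 20.8, 38.6 and 86.0 FPKM in FoxP1SkmKO KPC mice. The averaged log2 fold change was 0.38 ± 0.12 in WT (adjusted p = 0.094) and 0.35 ± 0.12 in FoxP1SkmKO mice (adjusted p = 0.17). Without the filter on low counts, in a fit that estimated no spread of dispersion between genes, Cebpb was called in both genotypes. At CT38 both KPC mice were above both controls in each genotype. There the WT control mice stood at 49.4 and 42.3 FPKM and the WT KPC mice at 81.8 and 81.3 FPKM (log2 fold change 0.83 ± 0.28, adjusted p = 0.33), and the FoxP1SkmKO control mice at 43.2 and 40.6 FPKM and the KPC mice at 86.0 and 53.4 FPKM (0.73 ± 0.28, adjusted p = 0.52). At CT30 the WT control mice were at 15.3 and 21.04 FPKM and the WT KPC mice at 39.2 and 30.0 FPKM, a log2 fold change of 0.93 ± 0.30 that was larger than the one at CT38 and was not called either (adjusted p = 0.71). The order was turned at CT34, where WT controls were at 33.4 and 34.7 FPKM and WT KPC mice at 32.1 and 27.3 FPKM. FoxP1SkmKO controls at CT34 reached 55.7 and 64.7 FPKM, the highest control values of the series. Cebpb tests at single times depended on the model: with the 4 libraries of the comparison alone, edgeR gave an adjusted p of 0.0015 at CT38 in WT mice and DESeq2 one of 1.6e-08, and in FoxP1SkmKO mice edgeR gave 0.21 and DESeq2 0.049. The third C/EBP gene, Cebpa, a factor of adipocyte and myeloid differentiation, had group medians of 1.62 to 1.84 FPKM. Its averaged log2 fold change was 0.16 ± 0.15 in WT (adjusted p = 0.67) and -0.03 ± 0.15 in FoxP1SkmKO mice (adjusted p = 0.96).

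Nfkbia, the feedback inhibitor of NF-kB, separated the WT groups at CT38, without a call. WT control mice stood at 7.98 and 9.07 FPKM and WT KPC mice at 14.2 and 14.4 FPKM, a 1.68-fold difference (log2 0.75 ± 0.17, adjusted p = 0.096). These KPC values were the highest of the 48 libraries. In FoxP1SkmKO mice the same time gave 9.07 and 9.19 FPKM in control and 10.2 and 11.2 FPKM in KPC mice (log2 0.23 ± 0.17, adjusted p = 0.76). DESeq2 on all 48 libraries called the WT difference at CT38 (adjusted p = 0.025), as did edgeR (0.022) and DESeq2 (0.030) on its 4 libraries alone. Averaged over time, the log2 fold change was 0.15 ± 0.07 in WT (adjusted p = 0.27) and 0.07 ± 0.07 in FoxP1SkmKO mice (adjusted p = 0.74). At CT30 the FoxP1SkmKO controls, at 10.3 and 12.1 FPKM, were above the KPC mice, at 9.45 and 8.65 FPKM.

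The subunits of NF-kB itself showed smaller averaged changes, none of them called. Rela had a WT control range of 6.13 to 9.14 FPKM and a WT KPC range of 6.29 to 9.68 FPKM, and its averaged log2 fold change was 0.13 ± 0.05 in WT (adjusted p = 0.20) and 0.10 ± 0.05 in FoxP1SkmKO mice (adjusted p = 0.46). Both KPC mice were above both controls at 3 of 6 times in WT and 4 of 6 times in FoxP1SkmKO mice. Over all genes with a mean of at least 1 FPKM, 20.2% and 20.6% of gene and time pairs were ordered in that way. Nfkb1, the gene of p105 and p50, had an averaged change of 0.00 ± 0.04 in WT mice, with a 95% interval of -0.08 to 0.08, and 0.05 ± 0.04 in FoxP1SkmKO mice, with an interval of -0.03 to 0.14. A change in Nfkb1 of the size seen for Cebpd or Bcl3 thus lay outside both intervals. Nfkb2, the gene of p100 and p52, had changes of 0.05 ± 0.08 in WT and -0.08 ± 0.08 in FoxP1SkmKO mice (adjusted p = 0.82 and 0.77). Relb, the partner of p52 in the non-canonical pathway, had changes of 0.06 ± 0.08 and -0.02 ± 0.08 (adjusted p = 0.80 and 0.94). Its single highest value was a WT control mouse at CT26, at 2.74 FPKM. For Nfkb2, the FoxP1SkmKO controls at CT38 were split, at 1.74 and 3.65 FPKM.

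**Figure D2:**
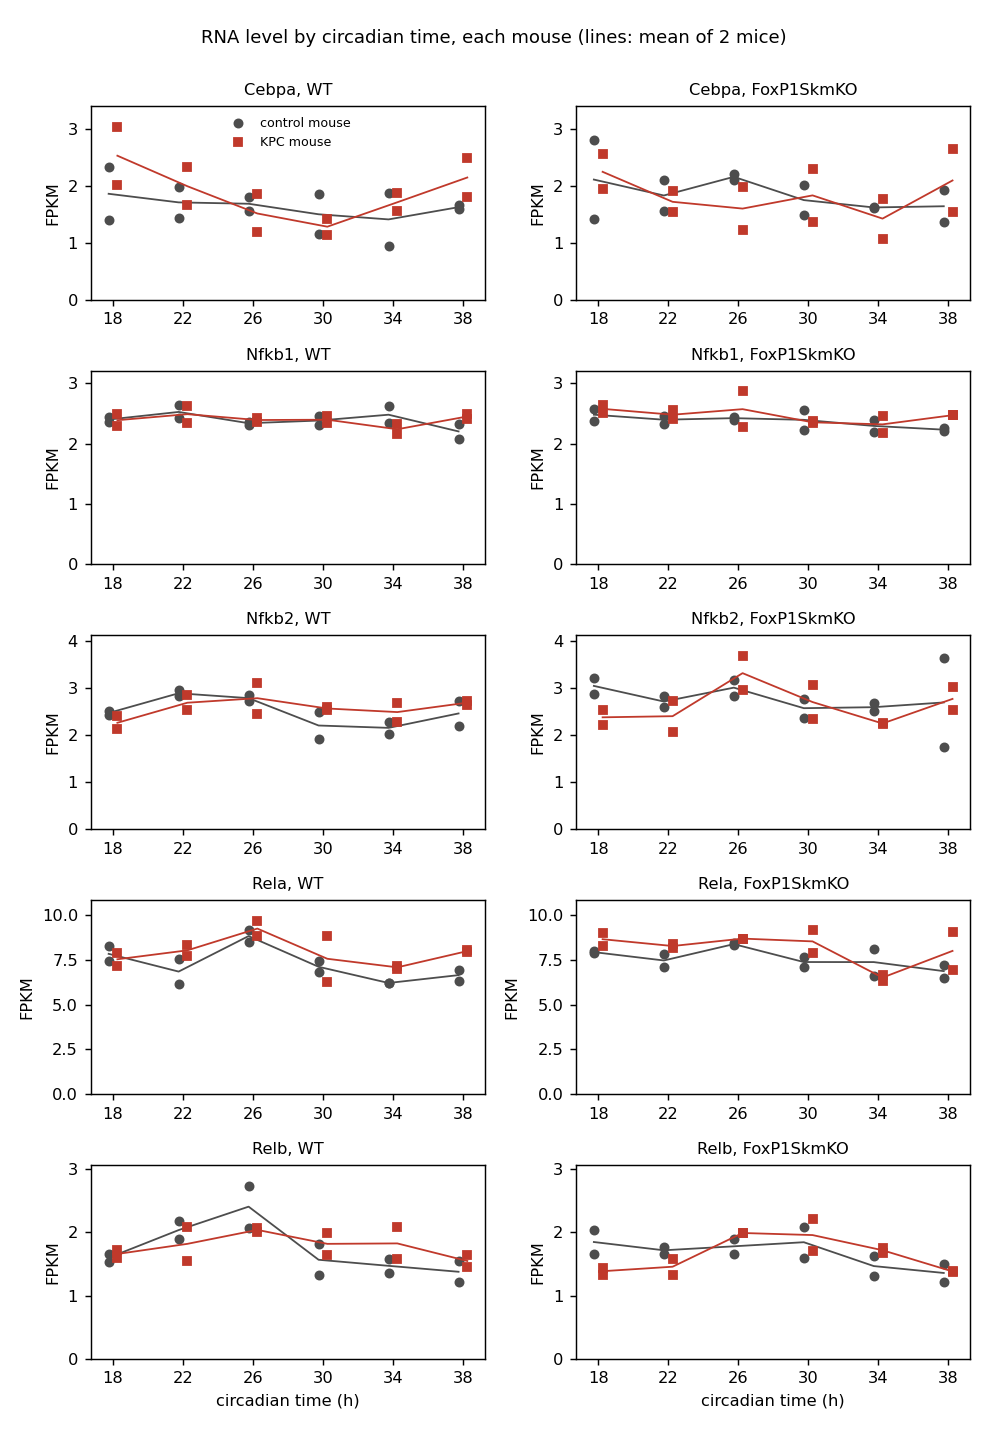
RNA level in FPKM (y axis, starting at 0) against circadian time in hours (x axis) for Cebpa, Nfkb1, Nfkb2, Rela and Relb, with WT mice on the left and FoxP1SkmKO mice on the right. Points are single mice, grey for control and red for KPC, and lines join the means of 2 mice. The lines of control and KPC mice stay close, with Nfkb1 between 2.08 and 2.87 FPKM in all 48 libraries.

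Averaged over the day, 2 of the 9 members were called in WT mice, Cebpd and Bcl3, both higher with tumor, and 1.79% of all tested genes were called in this comparison. The same 2 members were called in FoxP1SkmKO mice, where 0.428% of all tested genes were called. The members were chosen with earlier results of these data known, so these shares do not test whether the members stand out. Leaving out any 1 of the 48 libraries kept both calls in WT mice, with log2 fold changes of 0.62 to 0.77 for Cebpd and 0.95 to 1.18 for Bcl3. In FoxP1SkmKO mice both calls were lost with limma-trend on log2(FPKM + 0.1) or log2(FPKM + 1) (adjusted p of 0.059 to 0.063). Both were lost without KPC CT18 mouse 2, CT22 mouse 2, CT34 mouse 2 or CT38 mouse 1 (adjusted p of 0.057 to 0.075 for Cebpd and 0.057 to 0.10 for Bcl3). Bcl3 alone was lost without mouse 2 of the FoxP1SkmKO controls at CT22, CT26, CT30, CT34 or CT38 (adjusted p of 0.055 to 0.078). Averages over 5 times, an alternative chosen after seeing the data, kept both calls in WT mice whichever time was left out. Without CT38 the FoxP1SkmKO average of Cebpd was 0.27 (adjusted p = 0.35), and leaving out CT18 or CT30 also ended both calls (adjusted p of 0.12 and 0.065 for Cebpd, and 0.12 and 0.13 for Bcl3).

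The tumor effect was not shown to differ between genotypes. In the test of the difference of averaged effects, 0 of the 9 members and 0% of all tested genes were called by edgeR. The difference, FoxP1SkmKO minus WT, was -0.20 for Cebpd (95% interval -0.50 to 0.11, adjusted p = 0.85) and -0.34 for Bcl3 (-0.78 to 0.09, adjusted p = 0.83). For Cebpb it was -0.03 (-0.36 to 0.31). All 9 unadjusted p-values were above 0.05 here, and DESeq2 also called 0 members. At single times 0 of 54 member tests were called, against 0.0597% among all tests of genes at 6 times, and DESeq2 on 48 libraries called 0. Before adjustment 3 of the 54 had a p under 0.05 in edgeR's test. Over all 15637 tested genes this held for 654 genes at CT38 to 1722 genes at CT26. The difference at CT38 was -1.45 ± 0.55 for Bcl3 (95% interval -2.57 to -0.33, adjusted p = 1) and -0.52 ± 0.24 for Nfkbia (-1.0 to -0.04, adjusted p = 1), the difference at CT34 was -0.38 ± 0.18 for Rela (adjusted p = 1), and for Cebpd at CT38 it was -0.05 ± 0.36. Between genotypes without tumor, 0 members were called, against 3.44% of all tested genes. Cebpd was 0.32 ± 0.11 higher on the log2 scale in FoxP1SkmKO than in WT control mice (adjusted p = 0.098) and Bcl3 0.33 ± 0.16 higher (adjusted p = 0.29), and these were the only members with an unadjusted p under 0.05. Over all 15637 tested genes, 2682 were under 0.05 before adjustment in this comparison. With tumor, 0 members were called between genotypes, against 0.32% of genes, and the differences ranged from -0.13 for Relb to 0.12 for Cebpb, with 0 unadjusted p-values under 0.05. DESeq2 called 0 members in both genotype comparisons.

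**Figure D3:**
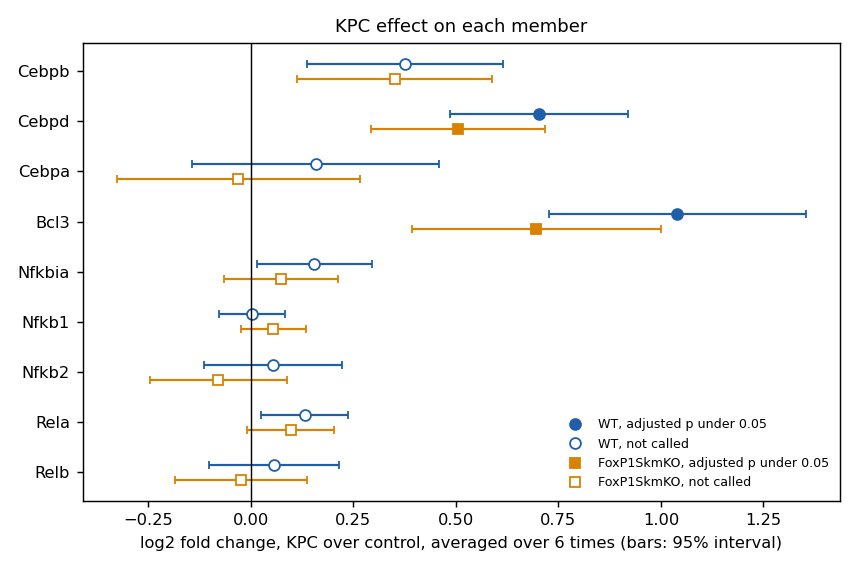
Log2 fold change between KPC and control mice averaged over 6 circadian times (x axis) for the 9 members (y axis), in WT and FoxP1SkmKO mice, with 95% confidence intervals. The values for Bcl3 (1.04 in WT, 0.70 in FoxP1SkmKO) and Cebpd (0.70 and 0.50) are the 2 called in each genotype, and Nfkb1 lies at 0.00 and 0.05.

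Time by time, 2 of 54 member tests were called in WT mice, Cebpd and Bcl3 at CT38, against 1.2% of tests over all genes and times. At CT38 alone 0.0256% of genes were called, 4 genes in all, so the 2 members made up 2 of those 4. In FoxP1SkmKO mice 1 of 54 member tests was called, Cebpd at CT38, against 0.0107% of all tests and 0.0064% at CT38, where Cebpd was the only gene called. The members were chosen with earlier results of these data known, and the paper lists Bcl3, Nfkbia and Cebpb among genes increased at CT38. The shares given beside the calls therefore do not test whether the members stand out. The calls at CT38 rest on 2 mice in each group. In WT mice both were lost without control mouse 2 (both adjusted p = 0.31) or KPC mouse 2 (both 0.17), and Bcl3 was lost without control mouse 1 (0.19). In FoxP1SkmKO mice the Cebpd call was lost without control mouse 1 (0.062), control mouse 2 (0.12) or KPC mouse 1 (0.38). With each of the 4 mice of its comparison left out in turn, the log2 fold change of Cebpd at CT38 ranged from 1.504 to 1.949 in WT and from 1.484 to 1.821 in FoxP1SkmKO mice. In a test of whether the tumor effect changed with time, 0 members were called in WT mice, against 0.883% of genes, and 0 in FoxP1SkmKO mice, against 0%. The smallest values were for Cebpd, with an adjusted p of 0.075 in WT and 0.19 in FoxP1SkmKO mice (unadjusted 0.00094 and 3.8e-05). In WT mice Nfkbia (unadjusted 0.0038, adjusted 0.16) and Bcl3 (unadjusted 0.0049, adjusted 0.18) were also under 0.05 before adjustment. This held for 1912 of all 15637 tested genes in WT mice. DESeq2 called 2 members in WT, Nfkbia and Cebpd, and 1 in FoxP1SkmKO mice, Cebpd.

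**Figure D4:**
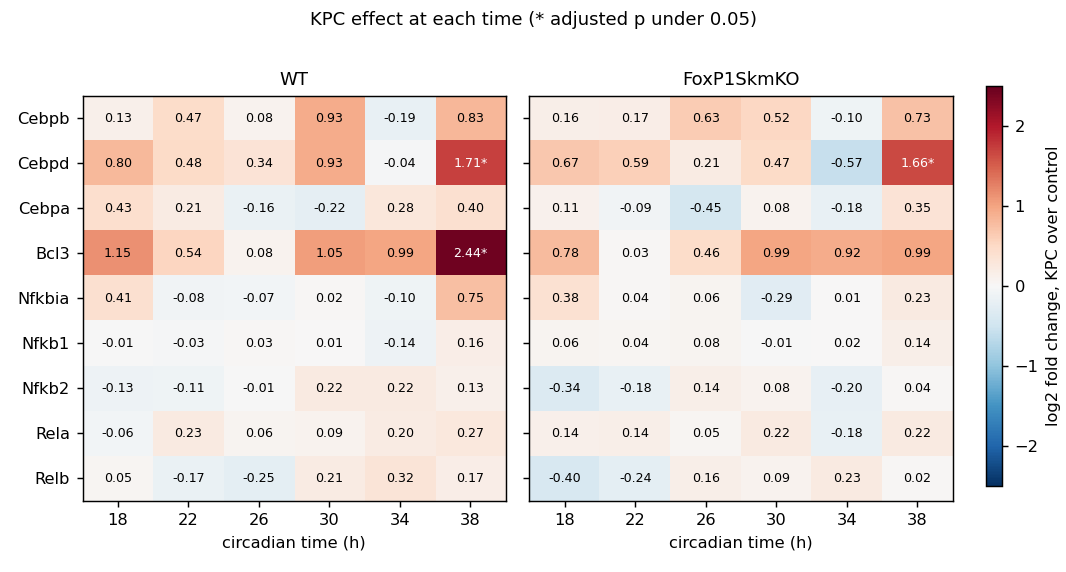
Log2 fold change between KPC and control mice as a color map, with members on the y axis and circadian time in hours on the x axis. WT mice are on the left and FoxP1SkmKO mice on the right. Each cell prints its value, from 2 mice per group, and an asterisk marks an adjusted p under 0.05. Cebpd rises to 1.71 and 1.66 at CT38 in WT and FoxP1SkmKO mice, after -0.04 and -0.57 at CT34, and Bcl3 reaches 2.44 in WT mice at CT38.

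Rhythm over 24 h was tested by fitting a sinusoid to the FPKM values of the 12 libraries of each group, with the study's threshold of an unadjusted p under 0.01 in an F test. A permutation test of the same F statistic, chosen after seeing the data, shuffled the 12 libraries over the times 100000 times. In WT control mice 1 of the 9 members was rhythmic by the F test, against 4.92% of all genes. This was Cebpb, with an amplitude of 12.9 FPKM around 30.2 FPKM and a peak at CT 38.7 (p = 0.00053, adjusted p = 0.069, permutation p = 0.00088). In WT KPC mice 0 members passed the F test, against 4.22% of genes. Cebpb in WT KPC mice had an amplitude of 19.8 FPKM and a peak at CT 38.5 (p = 0.036, permutation p = 0.011). A change of its rhythm was not detected (p = 0.59, permutation p = 0.36), so loss of the call does not show loss of the rhythm. In FoxP1SkmKO control mice 1 member passed the F test, Bcl3, with a peak at CT 22.3 (p = 0.0046, adjusted p = 0.18), against 4.07% of genes, and the permutation p of 0.0105 missed the threshold. In FoxP1SkmKO KPC mice Relb passed, with a peak at CT 28.9 (p = 0.0013, adjusted p = 0.19, permutation p = 0.0021), against 2.63% of genes. The permutation test also passed Relb in WT control mice (permutation p = 0.0053, F test p = 0.0106) and Nfkbia in WT KPC mice (permutation p = 0.0015, F test p = 0.0107).

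Differences in rhythm between KPC and control mice had an unadjusted p under 0.05 in the F test for Bcl3 and Nfkbia in WT mice, against 5.07% of genes, and for Relb in FoxP1SkmKO mice, against 5.09% of genes. In WT control mice Bcl3 peaked at CT 24.6 with an amplitude of 0.266 FPKM, and in WT KPC mice the fitted peak was at CT 39.5 with an amplitude of 0.269 FPKM. Nfkbia had a fitted amplitude of 0.878 FPKM in WT control and 2.44 FPKM in WT KPC mice, with peaks at CT 32.3 and CT 37.9. The WT values rest on the KPC mice at CT38: without mouse 2 neither gene had a p under 0.05, and without mouse 1 only Bcl3 did. At an adjusted p under 0.05, 0 members passed in any of these F tests.

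Around the 9 members, 10 lists of 111 pathway genes were counted, of which 94 were tested. In WT mice 8 of the 94 were called higher with tumor and 0 lower, against 1.79% of all tested genes called, with a median log2 fold change of 0.07 against 0.00 over all genes. In FoxP1SkmKO mice 2 of the 94 were called higher and 0 lower, against 0.428% of all tested genes (median 0.05 against 0.00). The lists were chosen with earlier results of these data known, and the paper names Osmr, Jak3 and Per1 as increased in WT KPC mice. These shares therefore do not test whether the lists stand out. Before adjustment, 2370 of all 15637 tested genes in WT mice and 1936 in FoxP1SkmKO mice had a p under 0.05 in edgeR's test. Upstream of the factors, the receptors had 3 of 13 called in WT mice: Osmr, the oncostatin M receptor (0.79 ± 0.12), Il1r1, the interleukin-1 receptor (0.51 ± 0.10), and Tnfrsf1b, a TNF receptor (0.46 ± 0.11), with adjusted p-values of 0.00039, 0.0052 and 0.031. In FoxP1SkmKO mice 0 of 13 receptors were called, and 1 had an unadjusted p under 0.05 in edgeR's test. Only 2 of 10 ligands had enough reads to be tested and 0 were called in either genotype, with 0 unadjusted p-values under 0.05. The summed level of the 10 ligands had medians of 3.13 FPKM in WT control and 3.01 FPKM in WT KPC mice. Of 14 genes of the IkB kinase complex and its upstream kinases, and of 18 adaptors and negative regulators, 0 were called with tumor in either genotype, and their medians in WT mice were 0.06 and 0.05. Unadjusted p-values under 0.05 numbered 1 and 3 in WT and 2 and 1 in FoxP1SkmKO mice. The other family members gave 0 of 3 C/EBP genes and 0 of 5 NF-kB or IkB genes called in either genotype, Rel and Nfkbiz among them (-0.09 ± 0.09 and 0.07 ± 0.11 in WT mice), with 1 of 3 and 0 of 5 under 0.05 before adjustment in WT mice and 1 in each group in FoxP1SkmKO mice.

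Of the genes known as targets of these factors, 0 of 11 tested NF-kB targets were called in either genotype, with medians of 0.01 in WT and -0.10 in FoxP1SkmKO mice and 4 unadjusted p-values under 0.05 in each. Among them Icam1, an adhesion molecule, had a WT log2 fold change of 0.44 ± 0.13 (adjusted p = 0.072), and Trim63, a ubiquitin ligase of muscle atrophy, of 0.01 ± 0.07 (adjusted p = 0.98). Of 11 tested C/EBP targets 0 were called, with medians of 0.31 in WT and 0.17 in FoxP1SkmKO mice and 2 and 4 unadjusted p-values under 0.05. Over all 15637 tested genes, 2370 in WT and 1936 in FoxP1SkmKO mice had an unadjusted p under 0.05. Leaving out Saa1 and Saa2, whose standard errors were over 10, the medians of the C/EBP targets were 0.31 and 0.17. Serpina3n, an acute-phase protein, stood at 0.74 ± 0.30 in WT mice (adjusted p = 0.22) and Fbxo32, the gene of atrogin-1, at 0.31 ± 0.16 (adjusted p = 0.34). Icam1, Trim63, Serpina3n and Fbxo32 were chosen after their values were seen. Of the 6 STAT3 pathway genes, 3 were called higher in WT mice: Socs3, a feedback inhibitor of the pathway (0.81 ± 0.19, adjusted p = 0.023), the kinase Jak3 (0.69 ± 0.10, adjusted p = 0.00016) and Stat3 (0.30 ± 0.05, adjusted p = 0.0017). Jak3 (0.52 ± 0.10, adjusted p = 0.0076) and Stat3 (0.22 ± 0.05, adjusted p = 0.044) were called in FoxP1SkmKO mice as well. Of 11 tested glucocorticoid-responsive genes, Per1, also a clock repressor (0.61 ± 0.14, adjusted p = 0.016), and Klf15 (0.32 ± 0.07, adjusted p = 0.019) were called higher in WT mice and 0 in FoxP1SkmKO mice, where 5 had an unadjusted p under 0.05. The difference between genotypes in the averaged tumor effect was called for 0 of the 94 genes. Between genotypes without tumor, 5 of the 94 were called, against 3.44% of all tested genes, a share near this background. All 5 were higher in FoxP1SkmKO mice: Per1 (0.75 ± 0.13), the kinase Pim1 (0.49 ± 0.09), the pseudokinase Trib1, which promotes degradation of C/EBP proteins (0.32 ± 0.08), the MAP kinase phosphatase Dusp1 (0.25 ± 0.07) and Tnip1, an inhibitor of NF-kB signaling (0.17 ± 0.05), and with tumor 1 was called, Pim1 (0.47 ± 0.09), against 0.32% of genes.

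**Figure D5:**
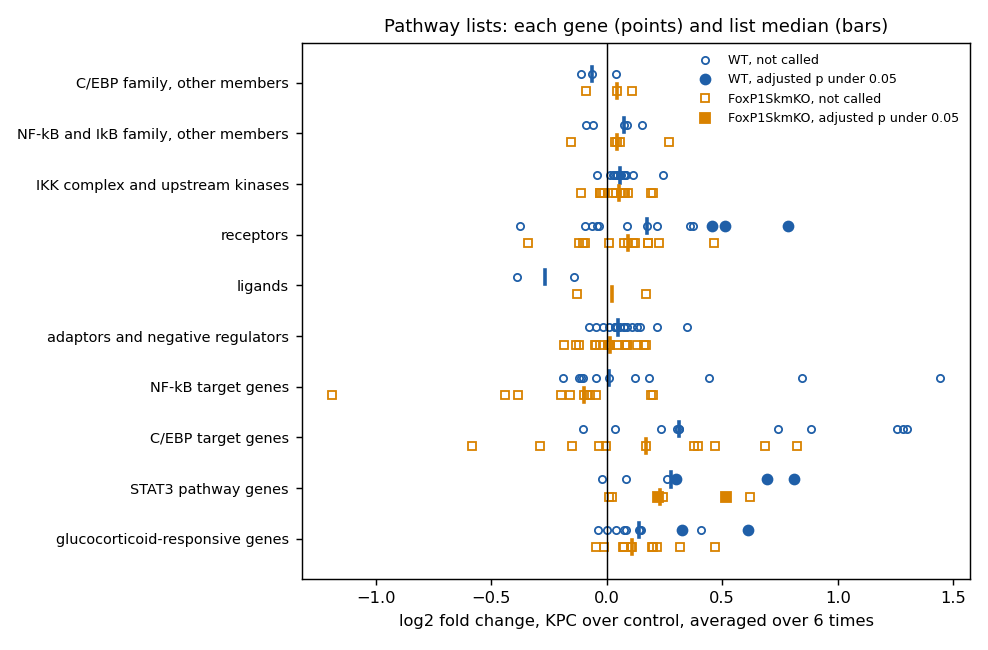
Averaged log2 fold change between KPC and control mice (x axis) for the tested genes of 10 pathway lists (y axis), 1 point per gene, in WT and FoxP1SkmKO mice, with called genes set apart by their marker. The 8 genes called in WT mice lie in the receptor, STAT3 and glucocorticoid lists, and 0 of 11 NF-kB targets and 0 of 11 C/EBP targets were called.

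Of the markers of other cell types, some neutrophil and fibroblast genes and 1 endothelial gene were called with the tumor. Among all tested genes, 1.79% were called in WT and 0.428% in FoxP1SkmKO mice. Over all 15637 tested genes, 2370 in WT and 1936 in FoxP1SkmKO mice had an unadjusted p under 0.05. In these bulk samples, fewer cells of a type and less RNA per cell cannot be told apart. The summed level of 9 neutrophil markers ranged from 0.149 to 1.87 FPKM (median 0.625) in WT control and from 1.24 to 3.86 FPKM (median 2.40) in WT KPC mice, and from 0.121 to 3.07 FPKM (median 0.703) and 0.288 to 22.2 FPKM (median 1.51) in FoxP1SkmKO mice without and with tumor. Of these markers 4 were tested, and S100a8 (log2 fold change 2.83 ± 0.71) and S100a9 (2.06 ± 0.50) were called higher in WT KPC mice, with 0 called in FoxP1SkmKO mice, where 3 of the 4 had an unadjusted p under 0.05, as in WT mice. The defining genes Ly6g, Retnlg, Ngp and Camp had a median of 0 over the 48 libraries. At CT38, where Cebpd and Bcl3 were called, the neutrophil sum was 0.149 and 0.557 FPKM in WT control and 1.96 and 3.55 FPKM in WT KPC mice, and at CT22, where the groups overlapped for both genes, it was 0.469 and 0.594 FPKM in control and 3.86 and 2.03 FPKM in KPC mice. The highest sum was in FoxP1SkmKO KPC CT30 mouse 2. Without this mouse the FoxP1SkmKO averages were 0.48 for Cebpd (adjusted p = 0.045) and 0.67 for Bcl3 (adjusted p = 0.0498). The 10 macrophage markers had 0 called in either genotype (2 in WT and 1 in FoxP1SkmKO mice had an unadjusted p under 0.05), with median sums of 27.3 FPKM in WT control and 32.1 FPKM in WT KPC mice. Of 5 erythroid markers and the 1 lymphocyte marker tested, 0 were called in either genotype by edgeR and 0 had an unadjusted p under 0.05, and the erythroid medians were -0.01 in WT and -0.03 in FoxP1SkmKO mice. All 8 fibroblast markers had log2 fold changes below 0 in both genotypes, with medians of -0.48 in WT and -0.59 in FoxP1SkmKO mice, and 7 of 8 had an unadjusted p under 0.05 in each. After adjustment 3 were called lower in WT KPC mice (Col1a1, Col1a2 and Col3a1) and 1, Lum, in FoxP1SkmKO KPC mice. Of 8 endothelial markers 1 was called lower in WT KPC mice and 0 were called in FoxP1SkmKO mice. In each genotype 2 of them had an unadjusted p under 0.05. Of 8 adipocyte markers 0 were called in either genotype, and 1 had an unadjusted p under 0.05 in each. The part of these cells in the member results was not tested.

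Across the 48 libraries, the genes whose log2(FPKM + 1) was most like each member were ranked by Pearson's r among 10007 genes with a mean of at least 1 FPKM. Libraries share tumor, genotype, time and depth, so these values are descriptions. Cebpd and Nfkbia had the same closest gene, Ddit4, a stress-induced inhibitor of mTOR signaling (r = 0.779 and 0.783), and Cebpb and Cebpd shared Map3k6 among their closest 3 (r = 0.794 and 0.765). Bcl3 was closest to cytokine receptor and signaling genes, Csf2rb2 (r = 0.841), Il4ra (0.830) and Jak3 (0.805). Cebpa was closest to the complement gene C4b (0.673) and to C1qa (0.657) and Lyz2 (0.643), which are both on the macrophage marker list. For the NF-kB subunits the closest genes were Zfp710 for Nfkb1 (0.585), Rhbdf1 for Nfkb2 (0.672), Mta1 for Rela (0.718) and Klhl31 for Relb (0.659). Differences between the 2 mice of a group are free of tumor, genotype and time, and over the 24 groups these differences were compared between members in 36 pairs. None had an adjusted p under 0.05 in a permutation test. The largest correlation was for Cebpd and Cebpa, with r = 0.480 (permutation p = 0.017, adjusted p = 0.39) and rho = 0.449, and r = 0.278 without the 2 groups farthest from the median.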

How the data were processed

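Poly-A selected RNA from 48 tibialis anterior muscles was sequenced, and the authors deposited read counts per gene for the 4 libraries of each comparison and FPKM values for all libraries. The paper's methods name STAR and HTSeq, while the submitters' processing notes list HISAT2 2.0.5 and DESeq2 1.20.0, with the mm39 genome. Whether counting used strand could not be settled, so reads of a gene and of an antisense partner cannot be told apart. FPKM were computed by the authors from counts, gene length and a library size. Columns of the authors' own comparisons (size-factor normalized values, group means, fold changes and p-values) were not used. A comparison's count table left out some genes that the FPKM table holds; for these, 28541 values (a gene in a library) were filled as 1 read each from FPKM.

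Counts were fitted with edgeR 4.0.16 (R 4.3.3), after its filter on low counts and TMM scaling, with the 24 groups as terms, quasi-likelihood tests and Benjamini-Hochberg adjustment over 15637 genes. Effects averaged over 6 times were contrasts of group coefficients. Intervals of 95% used 32.6 degrees of freedom. Rhythm was tested by least squares (numpy 2.4.6, scipy 1.17.1) over all genes with varying FPKM, and for the members also by permutation: 100000 shuffles of the 12 libraries of a group over times, or, for a difference, all 46656 exchanges of tumor labels within times after each tumor group was centred on its mean. The count fit, the rhythm fit and the motif search were tested on simulated data. Alternatives were limma-trend (limma 3.58.1) on log2(FPKM + 0.1) or log2(FPKM + 1), DESeq2 1.42.0, other scaling, no filter, the 4 libraries of a comparison alone, and each library left out. Count fits with a library left out kept the dispersion trend estimated from all 48 libraries, the left-out library included. Taken over all pairs of groups, libraries with the same replicate number did not deviate together, with correlations of -0.324 to 0.234 and a median of -0.0038. A pairing of mice limited to some groups was not tested.

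The members and gene lists were chosen with earlier results of these data known. The genes to be named were the 9 members, Foxp1, the 3 called genes of each list with the largest change in each direction, and the 3 genes most correlated with each member; others named were chosen after their values were seen. At 14480867 to 20787784 reads per library, Bcl3 had 11 to 94 reads.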

Additional observations from a re-analysis of the deposited data

Results flagged for a closer look

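Differences in rhythm between KPC and control mice, tested as the change of the sinusoid terms by group, gave an unadjusted p under 0.05 for 3 members. They were Bcl3 in WT mice (F test p = 0.0165, permutation p = 0.035), Nfkbia in WT mice (F test p = 0.0218, permutation p = 0.031) and Relb in FoxP1SkmKO mice (F test p = 0.0426, permutation p = 0.048). After Benjamini-Hochberg adjustment over all genes the F test gave 0.752 for Bcl3 and for Nfkbia and 0.757 for Relb, and 5.07% of all genes in WT and 5.09% in FoxP1SkmKO mice had an unadjusted p under 0.05. For Bcl3 the fitted peak was at CT 24.6 in WT control and CT 39.5 in WT KPC mice. For Nfkbia the fitted amplitude was 0.878 FPKM in WT control and 2.44 FPKM in WT KPC mice. For Relb the fitted peak was at CT 24.5 in FoxP1SkmKO control and CT 28.9 in FoxP1SkmKO KPC mice, with amplitudes of 0.196 and 0.350 FPKM. Of these group fits, only that of Relb in FoxP1SkmKO KPC mice had an F test p under 0.01 (0.0013). In control and KPC mice of WT the F test p was 0.037 and 0.17 for Bcl3 and 0.30 and 0.0107 for Nfkbia. For Relb in FoxP1SkmKO control mice it was 0.19. Without WT KPC CT38 mouse 2 neither Bcl3 nor Nfkbia was under 0.05, without WT KPC CT38 mouse 1 Nfkbia was not, and the Relb difference was kept in 8 of 24 fits that left out 1 mouse.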

How the results depend on the processing

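Averaged over 6 times, Cebpd and Bcl3 were called in WT mice under all 60 alternatives run. The alternatives include fits without a FoxP1SkmKO library, which lies outside that comparison. In FoxP1SkmKO mice 2 members were called, and this count was 0 without CT18, CT30 or CT38 (chosen after seeing the data) and with limma-trend on either FPKM scale. Without the filter on low counts the fit estimated no spread of dispersion between genes, and it gave more calls. Averaged over 6 times it called 3 members in each genotype, with Cebpb beside Cebpd and Bcl3. It also called 1 member (Cebpd) between genotypes without tumor, and 8 member tests at single times in WT and 5 in FoxP1SkmKO mice. A tumor effect varying with time was called for 4 members in WT and 2 in FoxP1SkmKO mice. With the 4 libraries of each comparison alone, edgeR and DESeq2 each called 5 member tests in WT mice, and DESeq2 called 2 in FoxP1SkmKO mice. DESeq2 on 48 libraries called 2 members in WT and 1 in FoxP1SkmKO mice for change with time. Rhythm counts moved to 2 in WT control and 1 in WT KPC mice on both log2 scales, and to 0 in every rhythm test with an adjusted p under 0.05. By permutation, chosen after seeing the data, they were 2 in WT control, 1 in WT KPC and 0 in FoxP1SkmKO control mice. Libraries with the same replicate number did not deviate together over all pairs of groups. With this number as a block, rhythm counts were 2 in WT control and 1 in WT KPC mice. The count of rhythm differences in FoxP1SkmKO mice was then 0, and other counts kept their values.

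Leaving out 1 library at a time gave 2 averaged calls in WT and 0 to 2 in FoxP1SkmKO mice (Cebpd and Bcl3 both in 39 of 48 fits), 0 to 1 between genotypes without tumor, 0 to 3 at single times in WT and 0 to 1 in FoxP1SkmKO mice, and 0 to 1 for change with time in each genotype. Rhythm counts were 1 to 2 in WT control, 0 to 1 in WT KPC, 0 to 2 in FoxP1SkmKO control and 1 to 2 in FoxP1SkmKO KPC mice, and rhythm differences 0 to 3 in WT and 0 to 1 in FoxP1SkmKO mice. Averaged calls in FoxP1SkmKO mice were lost only in fits without a FoxP1SkmKO library. Fits without a WT library leave the groups of that comparison whole. No call changed sign. The cause of these changes was not tested.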
